A study of Homo sapiens with 12 samples.

Results

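The ATP-binding cassette (ABC) transporters were followed through 12 microarrays of HepG2 tumour spheroids. A gene was counted as a member when its symbol in the platform annotation was ABC, a letter from A to G and a number, and only probe sets with exactly 1 gene symbol were read. A gene with several such probe sets was represented by the brightest of them over the 12 arrays. This gave 43 members among 18404 genes, and no member was removed for a low level. ABCC13 is a pseudogene in RefSeq and was kept because its symbol matches.

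HepG2 is an established human hepatocellular carcinoma cell line, and a spheroid is a ball of such cells grown in suspension. All 12 samples were HepG2 spheroids, 10 days old, grown in stirred flasks in medium with serum. The 3 groups of 4 arrays each were wild type cells, cells with a knockdown of HIF-1α and cells with a knockdown of HIF-2α, and the design text gives 4 different spheroid experiments for each. The RNA was amplified before labelling, with a kit that the protocol describes as used for 250 microdissected cells. HIF1A encodes HIF-1α and EPAS1 encodes HIF-2α, the subunits through which the hypoxia-inducible factors respond to oxygen. The sources used here do not give the method of knockdown, the number of clones or what, if anything, was introduced into the wild type cells as a control. The comparisons ask how the loss of either subunit alters expression in the spheroids.

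ABC proteins use ATP to move lipids, bile salts, conjugates, metals, peptides or drugs across membranes. A full transporter carries a pair of membrane domains and a pair of nucleotide-binding domains in 1 chain, and a half-transporter works as a dimer. In hepatocytes, members in the canalicular membrane pass phospholipid, sterols, bile salts and conjugated compounds into bile, and members in the basolateral membrane pass conjugates back to blood. Others serve mitochondria, lysosomes and peroxisomes, and the ABCE and ABCF proteins have no membrane domain and act on ribosomes.

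Values are the authors' log2 values, and a difference of group means is a log2 fold change. They were tested with limma over all 18404 genes, and a gene was called when its adjusted p (Benjamini-Hochberg) lay below 0.05. An exact two-sided permutation test of 4 against 4 arrays is given for single members; its smallest possible p is 0.0286. The knocked-down genes were read first. The mean of HIF1A was 10.70 in wild type against 9.46 after HIF-1α knockdown, a difference of -1.23 (SE 0.15, limma adjusted p = 0.00241), which leaves 42.5% of the wild type level. That of EPAS1 was 11.01 in wild type against 9.89 after HIF-2α knockdown, a difference of -1.12 (SE 0.09, limma adjusted p = 0.000206), which leaves 46.0%. Neither gene was called in the other knockdown.

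Some properties of the arrays bear on the members. On 3 arrays, wild type replicates 1 and 2 and replicate 4 of the HIF-2α knockdown, the floor was raised: their 0.1 percentile lay between 6.33 and 6.35, against 6.11 to 6.23 on the other 9 arrays. The mean of 11 hepatocyte markers ran from 12.18 to 12.65 in wild type, from 11.73 to 12.01 in HIF-1α knockdown and from 11.99 to 12.56 in HIF-2α knockdown. All 11 had a lower mean in HIF-1α knockdown than in wild type (median -0.37), and 10 were higher in HIF-2α than in HIF-1α knockdown (median 0.35). Only FGB, a fibrinogen chain gene, was called. Against wild type it fell by 1.75 in HIF-1α knockdown (limma adjusted p = 9.03e-06) and rose by 0.63 in HIF-2α knockdown (limma adjusted p = 0.0196). Between the knockdowns its difference was 2.38 (limma adjusted p = 1.66e-07). The mean of 15 markers of blood, vessel, stromal and bile duct cells lay between 8.06 and 8.20 on every array, but single markers moved. PDGFRB, a marker of stromal cells, was lower in HIF-2α knockdown than in wild type (-0.40, limma adjusted p = 0.0109) and than in HIF-1α knockdown (-0.35, limma adjusted p = 0.0105), and the myeloid marker CD14 was lower in HIF-2α than in HIF-1α knockdown (-0.39, limma adjusted p = 0.00899). Of 24 cytosolic ribosomal protein genes, read as a check of the amplified RNA, 23 had a lower mean in HIF-1α knockdown than in wild type (median -0.43), and all 24 had a higher mean in HIF-2α than in HIF-1α knockdown (median 0.35), with RPL11 alone called in both (limma adjusted p = 0.0368 and 0.0206). These are the comparisons in which members are called below. PTPRC, which marks leukocytes, averaged 6.55 in wild type, near the bottom of the range, and the albumin gene ALB averaged 13.93. LYZ and KRT19 were high in these hepatoma cells, at 13.44 and 10.29. Whether these shifts have a part in the differences below was not tested. All samples were spheroids of the same cell line, and bulk RNA does not show whether a marker shifted in all cells or in some.

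The members spanned nearly the whole range of the arrays, although probes differ in brightness and a level says little about abundance between genes. By wild type mean, 23 members lay at or above the median gene and 20 below it. ABCC2, the canalicular pump for glutathione and bilirubin conjugates, was the brightest, at 12.37, above 99.2% of genes. ABCD3, which imports branched-chain acyl-CoA into peroxisomes, followed at 10.09, and ABCF1, a ribosome-associated member, at 9.88. At the other end, 12 members lay in the lowest 15% of genes: ABCA6, ABCA8, ABCA9, ABCA10, ABCA12, ABCA13, ABCB5, ABCB11, ABCC9, ABCC12, ABCC13 and ABCD2. ABCB11, the bile salt export pump that defines the canalicular membrane of mature hepatocytes, is among these, with array values between 6.38 and 6.72. The order of the arrays in these 12 followed the array floors: in 11 of 12 the 2 highest wild type arrays were replicates 1 and 2, and in 10 of 12 the highest HIF-2α knockdown array was replicate 4. With no detection calls, a level this low cannot be told from no signal.

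**Figure D1:**
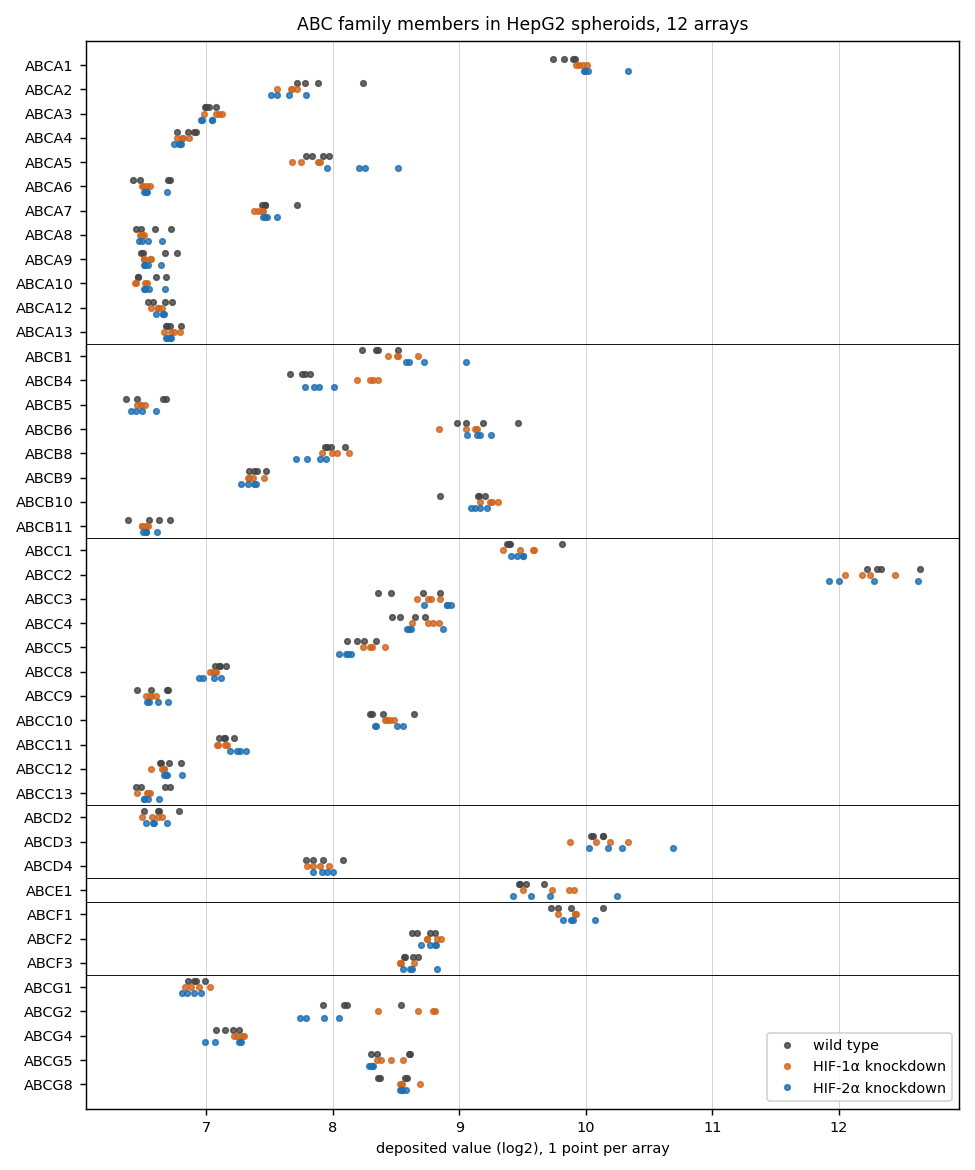
Level of each of the 43 members on each of the 12 arrays, in log2 units, with members in rows by subfamily, 1 point per array and the groups by colour. The groups lie on top of each other for most members, ABCC2 stands highest with a wild type mean of 12.37, and 12 members lie in the lowest 15% of genes.

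Few members moved. In HIF-1α knockdown against wild type, 1 of 43 members was called, which is 2.33%, against 0.962% of all genes. In HIF-2α knockdown against wild type limma called no member, against 0.788% of all genes. Between the knockdowns, 3 of 43 were called, which is 6.98%, against 2.77% of all genes. At an unadjusted limma p under 0.05, the numbers of members in the same order were 3, 8 and 6 of 43, against 13.2%, 12.01% and 13.6% of all genes. Members whose arrays did not overlap between the groups numbered 2, 2 and 6 of 43, against 7.83%, 5.31% and 9.06% of all genes. As shares of the members these were 6.98%, 18.6% and 13.95%, then 4.65%, 4.65% and 13.95%. Of the 9 shares, 1 lay just above that of all genes (13.95% against 13.6%), 4 lay further above, and the others lay below. The 4 that lay further above rest on 1, 3, 8 and 6 members, and the differences in share were not tested. Both comparisons with wild type use the same 4 wild type arrays, and each comparison shares arrays with the other 2, so their values are given side by side and not as independent results. The median difference over the members was -0.02 in HIF-1α knockdown against wild type, -0.02 in HIF-2α knockdown against wild type and 0.001 between the knockdowns, beside 0.005, -0.01 and -0.01 over all genes. The members varied about as much as other genes within a group: the median pooled SD was 0.089 for members and 0.102 for all genes.

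**Figure D2:**
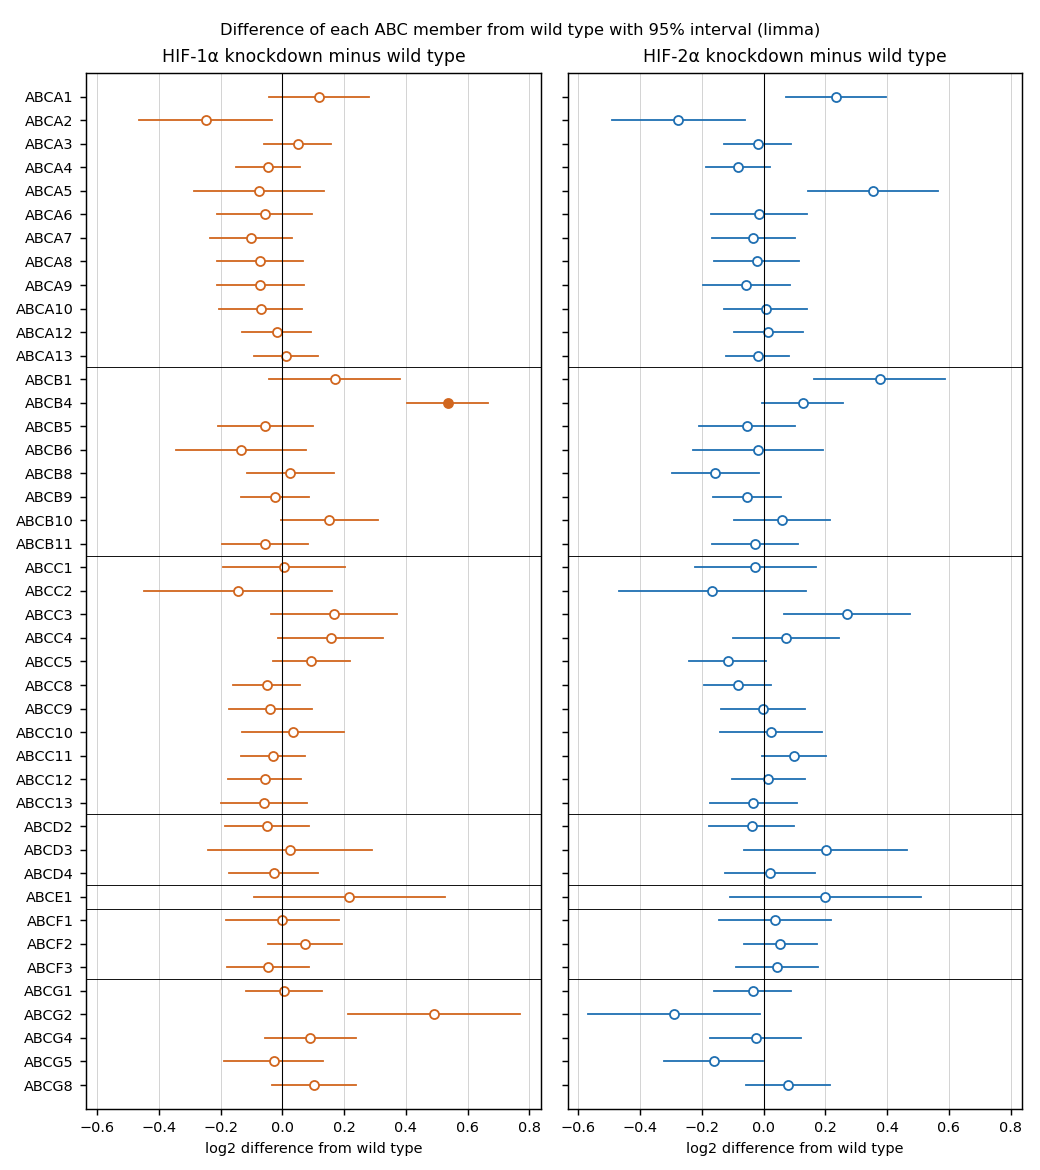
Log2 difference of each of the 43 members from wild type (points) with its 95% interval from limma (lines), for HIF-1α knockdown on the left and HIF-2α knockdown on the right; a filled point was called. Most intervals cover 0, and ABCB4 in HIF-1α knockdown is the filled point.

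Among the canalicular members, ABCB4 was higher in HIF-1α knockdown. ABCB4 flips phosphatidylcholine into the outer leaflet of the canalicular membrane, from where it enters bile. Its 4 wild type values were 7.66, 7.78, 7.82 and 7.75, and its 4 HIF-1α knockdown values were 8.20, 8.32, 8.35 and 8.29. In HIF-2α knockdown they were 7.89, 7.85, 7.78 and 8.01. Every HIF-1α knockdown array thus lay above every array of the other groups, while wild type and HIF-2α knockdown overlapped. The group means were 7.76 ± 0.07, 8.29 ± 0.07 and 7.88 ± 0.10 (SD, n = 4 each). ABCB4 rose 1.45-fold in HIF-1α knockdown against wild type (95% interval of the log2 difference 0.40 to 0.67, limma adjusted p = 0.00146, exact permutation p = 0.0286), which was the 8th smallest p of the whole table. It was lower in HIF-2α than in HIF-1α knockdown by 1.33-fold (log2 difference -0.41, SE 0.06, limma adjusted p = 0.00271, exact permutation p = 0.0286). Against wild type the HIF-2α knockdown difference was 0.13 (SE 0.06, limma adjusted p = 0.438), or 0.05 without the raised-floor arrays. Both calls were made under each of 20 other settings.

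**Figure D3:**
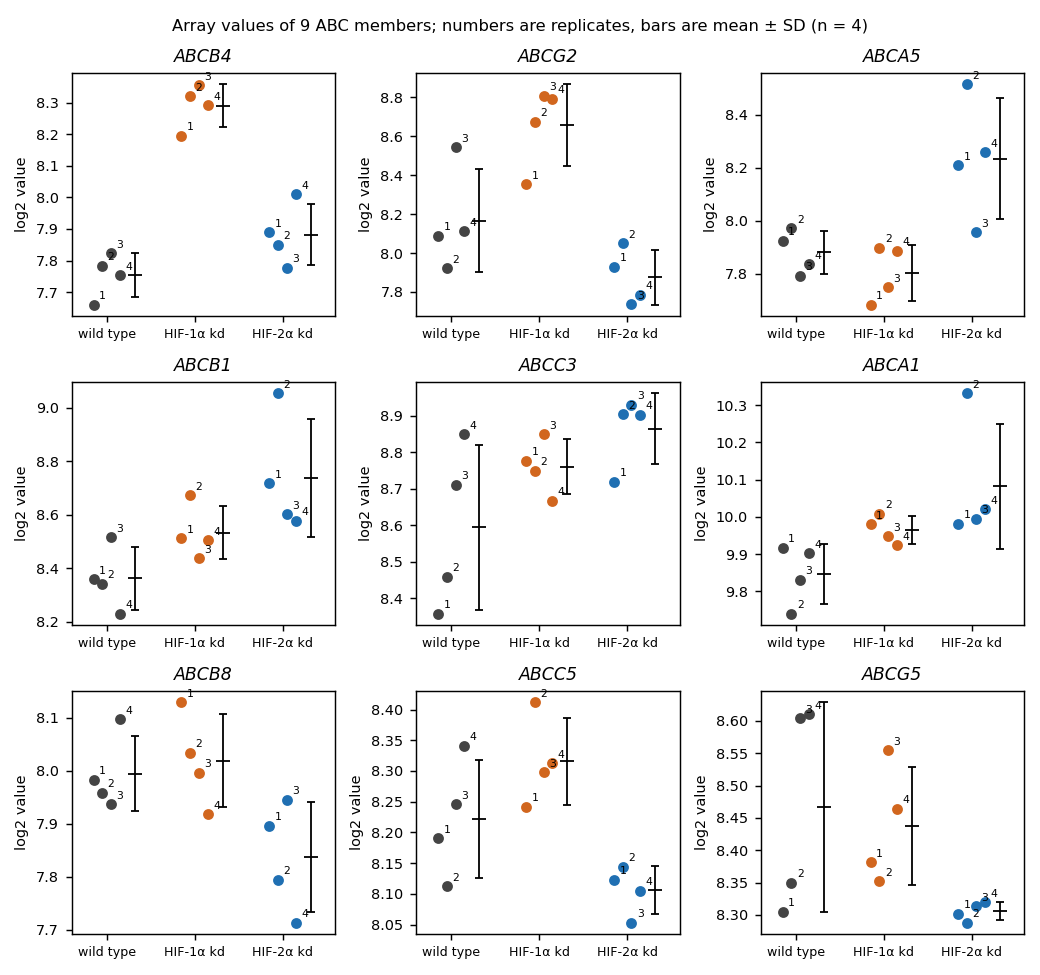
Array values in log2 units of 9 members, with points numbered by replicate, bars for mean ± SD (n = 4) and kd for knockdown; each panel has its own axis, which does not start at 0. All 4 HIF-1α knockdown values of ABCB4 lie above its other 8 values, and all 4 HIF-2α knockdown values of ABCG2 lie below its HIF-1α knockdown values.

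ABCG2, a half-transporter that exports urate, porphyrins and many drugs, differed most between the knockdowns. Its wild type values were 8.09, 7.92, 8.54 and 8.11. In HIF-1α knockdown it read 8.35, 8.67, 8.81 and 8.79, and in HIF-2α knockdown 7.93, 8.05, 7.74 and 7.79. The knockdown groups did not overlap, and wild type overlapped both. ABCG2 was 1.72-fold lower in HIF-2α than in HIF-1α knockdown (log2 difference -0.78, SE 0.13, limma adjusted p = 0.00546, exact permutation p = 0.0286), a call made under each of 20 other settings. Neither knockdown alone was called against wild type. The HIF-1α knockdown difference was 0.49 (SE 0.13, limma adjusted p = 0.0936, exact permutation p = 0.0571), with 3 of 4 arrays above all wild type arrays; without wild type replicate 3 it was 0.62 (limma adjusted p = 0.0159), and without HIF-1α knockdown replicate 1 it was 0.59 (limma adjusted p = 0.0491). Without the raised-floor arrays it was 0.33 (limma adjusted p = 0.457). The HIF-2α knockdown difference was -0.29 (SE 0.13, limma adjusted p = 0.384, exact permutation p = 0.0857), and without wild type replicate 3 it was -0.17.

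ABCB1, the multidrug efflux pump P-glycoprotein, lies next to ABCB4 on chromosome 7 and is close to it in sequence, and whether either probe set also reads the other transcript was not tested. Its wild type values were 8.36, 8.34, 8.52 and 8.23, and its HIF-2α knockdown values were 8.72, 9.05, 8.60 and 8.58. In HIF-1α knockdown they were 8.51, 8.67, 8.44 and 8.50. All 4 HIF-2α knockdown arrays lay above all wild type arrays, and HIF-1α knockdown overlapped both. The HIF-2α knockdown difference from wild type was 0.38 (SE 0.10, limma adjusted p = 0.102, exact permutation p = 0.0286), which was not a call; without HIF-2α knockdown replicate 2 it was 0.27. The HIF-1α knockdown difference was 0.17 (limma adjusted p = 0.526), or 0.10 under quantile normalization. The difference of ABCB4 exceeded that of ABCB1 by 0.36 in HIF-1α knockdown against wild type (exact permutation p = 0.0286, 0.0858 adjusted over the 6 pair tests made). For HIF-2α against HIF-1α knockdown, the difference of ABCB4 minus that of ABCB1 was -0.61 (exact permutation p = 0.0286, 0.0858 adjusted).

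ABCC2 gave 12.30, 12.22, 12.64 and 12.33 in wild type. It gave 12.04, 12.24, 12.44 and 12.18 in HIF-1α knockdown and 11.997, 12.63, 11.92 and 12.28 in HIF-2α knockdown. The 3 groups overlapped. The intervals of the log2 difference from wild type were -0.45 to 0.16 in HIF-1α knockdown and -0.47 to 0.14 in HIF-2α knockdown, and under quantile normalization the sign of the first turned, to 0.06. ABCB11 stayed at the floor in all groups, as given above.

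ABCG5 and ABCG8 form a dimer that passes cholesterol and plant sterols into bile. ABCG5 read 8.31, 8.35, 8.60 and 8.61 in wild type, 8.38, 8.35, 8.56 and 8.46 after HIF-1α knockdown, and 8.30, 8.29, 8.31 and 8.32 after HIF-2α knockdown. The HIF-2α knockdown arrays lay below every HIF-1α knockdown array but overlapped wild type. The difference of HIF-2α knockdown from wild type was -0.16 (SE 0.07, limma adjusted p = 0.410), and under quantile normalization it was -0.22 and called (limma adjusted p = 0.0456). Without the raised-floor arrays it was -0.31 and not called (limma adjusted p = 0.11). ABCG8 read 8.59, 8.36, 8.37 and 8.57 in wild type, 8.69, 8.55, 8.53 and 8.54 after HIF-1α knockdown, and 8.55, 8.55, 8.58 and 8.53 after HIF-2α knockdown. Its groups overlapped, and the changes of the dimer partners did not differ by the test in any comparison (exact permutation p between 0.143 and 0.343 for the 3 pair tests).

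The genes of this dimer stand head to head on chromosome 2, with 131 bases between their starts, so that a single stretch is the promoter of both. It is shown because it is shared by partners that were measured separately. In GRCh38.p14, from the RefSeq promoter table, it is chr2:43838840-43838970 on the strand of ABCG8, with a match to the HIF core motif in capitals, 82 bases before the start of ABCG8 and 54 before that of ABCG5.
ABCG5 and ABCG8: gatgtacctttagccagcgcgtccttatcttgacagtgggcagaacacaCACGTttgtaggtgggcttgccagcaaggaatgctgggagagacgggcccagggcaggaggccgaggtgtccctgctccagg

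Among sterol and phospholipid members, ABCA5 differed between the knockdowns. ABCA5 is a lysosomal and endosomal member linked to cholesterol handling. Its wild type values were 7.92, 7.97, 7.79 and 7.84, and its HIF-1α knockdown values 7.68, 7.90, 7.75 and 7.89. In HIF-2α knockdown it read 8.21, 8.52, 7.96 and 8.26, above every HIF-1α knockdown array and, in 3 of 4 arrays, above every wild type array. It was 1.35-fold higher in HIF-2α than in HIF-1α knockdown (log2 difference 0.43, SE 0.10, limma adjusted p = 0.0306, exact permutation p = 0.0286). This call held under 11 of 20 other settings; it was lost without the raised-floor arrays (0.42, limma adjusted p = 0.158), without HIF-2α knockdown replicate 2 (0.34, limma adjusted p = 0.0552) or replicate 4 (0.42, limma adjusted p = 0.0919), and without any 1 of the HIF-1α knockdown replicates (0.39 to 0.46, limma adjusted p between 0.0537 and 0.11). Against wild type the HIF-2α knockdown difference was 0.35 (SE 0.10, limma adjusted p = 0.12), and without HIF-2α knockdown replicate 3 it was 0.45 (limma adjusted p = 0.0334).

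ABCA1 loads cellular cholesterol and phospholipid onto apolipoprotein A-I. It read 9.92, 9.74, 9.83 and 9.90 in wild type, 9.98, 10.01, 9.95 and 9.92 after HIF-1α knockdown, and 9.98, 10.33, 10.00 and 10.02 after HIF-2α knockdown. Every array of both knockdown groups lay above every wild type array. In HIF-1α knockdown the margin was small, with a lowest value of 9.924 against a highest wild type value of 9.917. The differences of the HIF-1α and HIF-2α knockdowns from wild type were 0.12 (SE 0.07, limma adjusted p = 0.578) and 0.23 (SE 0.07, limma adjusted p = 0.191), and neither was called. Under quantile normalization the first was 0.03, and without HIF-2α knockdown replicate 2 the second was 0.15. ABCG1, which passes sterol to high-density lipoprotein, read between 6.81 and 7.03 on all arrays. ABCA2, a lysosomal member, read 7.89, 7.72, 7.78 and 8.24 in wild type, 7.67, 7.56, 7.68 and 7.72 after HIF-1α knockdown, and 7.56, 7.52, 7.79 and 7.65 after HIF-2α knockdown. Its differences from wild type were -0.25 (limma adjusted p = 0.282) and -0.28 (limma adjusted p = 0.254), and without wild type replicate 4 they were -0.14 and -0.16.

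Over the whole ABCA subfamily, 9 of 12 members had a lower mean in HIF-1α knockdown than in wild type and 8 of 12 in HIF-2α knockdown, none of them called, with medians of -0.06 and -0.02 (8 of 12 and 6 of 12 under quantile normalization). Of these 12, 6 are among the members at the floor named above, and without the raised-floor arrays the direction turned: 9 of 12 were then higher in each knockdown, with medians of 0.03 and 0.03. ABCA3, ABCA4 and ABCA7, a surfactant lipid, a retinoid and a phospholipid transporter, read 6.96 to 7.13, 6.74 to 6.92 and 7.38 to 7.71. Of the 5 ABCG members, all 5 had a lower mean in HIF-2α than in HIF-1α knockdown, where 44.7% of all genes had a higher mean. The median of the 5 was -0.12, the differences ran from -0.78 to -0.02, and ABCG2 alone was called. Also under quantile normalization, after centring and without the raised-floor arrays, 0 of 5 were higher. ABCG4 read between 6.99 and 7.30.

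The multidrug resistance proteins of subfamily ABCC export glutathione, glucuronide and sulfate conjugates. None of the 8 measured was called in any comparison. ABCC3, the basolateral exporter of conjugates, read 8.36, 8.46, 8.71 and 8.85 in wild type, 8.78, 8.75, 8.85 and 8.67 after HIF-1α knockdown, and 8.72, 8.90, 8.93 and 8.90 after HIF-2α knockdown. Its HIF-2α knockdown difference was 0.27 (SE 0.10, limma adjusted p = 0.242, exact permutation p = 0.0571), and without the raised-floor arrays it was 0.07. ABCC5, a cyclic nucleotide exporter, read 8.12, 8.14, 8.05 and 8.10 in HIF-2α knockdown, below all HIF-1α knockdown values of 8.24, 8.41, 8.30 and 8.31, while wild type, at 8.19, 8.11, 8.25 and 8.34, overlapped both. Its difference between the knockdowns was -0.21 (SE 0.06, limma adjusted p = 0.0782, exact permutation p = 0.0286), which was not a call.

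ABCC1, a broad conjugate exporter, read 9.40, 9.37, 9.39 and 9.81 in wild type, 9.48, 9.34, 9.58 and 9.59 after HIF-1α knockdown, and 9.46, 9.51, 9.50 and 9.41 after HIF-2α knockdown, with overlapping groups. ABCC4, which exports cyclic nucleotides and bile salts, read 8.47, 8.65, 8.73 and 8.53 in wild type. After HIF-1α knockdown it read 8.62, 8.80, 8.84 and 8.75, and after HIF-2α knockdown 8.62, 8.87, 8.58 and 8.60, and none of its differences was called. ABCC10 ran from 8.30 to 8.64 and ABCC12 from 6.57 to 6.81. ABCC11, with values from 7.09 to 7.31, was not called but was under quantile normalization, between the knockdowns (0.15, limma adjusted p = 0.025, against 0.13 and 0.224); it was picked for description after its values were seen, because its arrays did not overlap. The channel regulators ABCC8 and ABCC9, subunits of ATP-sensitive potassium channels, read 6.94 to 7.16 and 6.45 to 6.70.

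The half-transporters ABCB6, ABCB8, ABCB9 and ABCB10, and the ABCD members, showed no call. ABCB8, a mitochondrial half-transporter, read 7.98, 7.96, 7.94 and 8.10 in wild type, 8.13, 8.03, 7.996 and 7.92 after HIF-1α knockdown, and 7.90, 7.79, 7.95 and 7.71 after HIF-2α knockdown. The HIF-2α knockdown difference from wild type was -0.16 (SE 0.07, limma adjusted p = 0.347), and over the mean of all its probe sets it was -0.06. ABCB8 alone had 3 probe sets, and the other 2, at about 7.4, gave group means within 0.1 of each other. ABCB10, which serves haem synthesis in mitochondria, read 9.14, 8.85, 9.16 and 9.21 in wild type. After HIF-1α knockdown it read 9.26, 9.24, 9.31 and 9.16, a difference of 0.15 (limma adjusted p = 0.398), and after HIF-2α knockdown 9.13, 9.22, 9.16 and 9.09. Without wild type replicate 2 the former difference was 0.07, and under quantile normalization it was 0.06. ABCB6, a porphyrin transporter, ran from 8.84 to 9.46 and ABCB9, a lysosomal peptide transporter, from 7.27 to 7.47. The peroxisomal ABCD3 ran from 9.87 to 10.69, the highest being HIF-2α knockdown replicate 2, and the lysosomal cobalamin transporter ABCD4 from 7.79 to 8.08.

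The cytosolic members act on translation. ABCE1, which splits ribosomes after termination, read 9.48, 9.52, 9.67 and 9.48 in wild type, 9.51, 9.91, 9.73 and 9.87 after HIF-1α knockdown, and 9.72, 10.24, 9.42 and 9.56 after HIF-2α knockdown. Its differences from wild type were 0.22 (SE 0.14) and 0.20 (SE 0.14), neither called, and without HIF-2α knockdown replicate 2 the second was 0.03. ABCF1, ABCF2 and ABCF3 ran from 9.73 to 10.13, from 8.63 to 8.85 and from 8.53 to 8.82. In these 4 genes the HIF-2α knockdown mean was above wild type each time, with a median of 0.05 and no call. Over all genes the share above was 44.6%. Under quantile normalization, however, only 1 of these 4 was above, with a median of -0.01. HIF-2α knockdown replicate 2 was the highest array of its group in 12 of the 23 members in the upper part of the range. Wild type replicate 4 was likewise the highest of its group in 12 of the 23. The shares over all genes are not given here.

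The lists of genes that work with these members were also read. Over all genes, 0.815% were called higher and 0.147% lower in HIF-1α knockdown against wild type, 0.478% and 0.31% in HIF-2α knockdown against wild type, and 0.967% and 1.8% in HIF-2α against HIF-1α knockdown. Of 16 cholesterol efflux genes, 2 were lower in HIF-2α than in HIF-1α knockdown, PLTP with a log2 difference of -0.77 (SE 0.12, limma adjusted p = 0.00345) and SOAT2 with -0.61 (SE 0.11, limma adjusted p = 0.0104), and none was called against wild type. PLTP moves phospholipid between lipoproteins, and SOAT2 esterifies cholesterol. Of 9 solute carriers of bile salts and conjugates, 1 was called: SLC51B, a subunit of the basolateral bile salt exporter, rose by 0.78 in HIF-1α knockdown (SE 0.12, limma adjusted p = 0.0107) and was lower in HIF-2α than in HIF-1α knockdown, with a log2 difference of -1.06 (SE 0.12, limma adjusted p = 0.000492). Of 17 canalicular partners, the trafficking protein STX3 rose by 0.40 in HIF-1α knockdown (limma adjusted p = 0.0107), and VIPAS39 and DPP4 rose by 0.34 and 0.63 in HIF-2α knockdown (limma adjusted p = 0.0305 and 0.0438). STX3 and CEACAM1 were lower in HIF-2α than in HIF-1α knockdown, with log2 differences of -0.27 and -0.38 (limma adjusted p = 0.0375 and 0.0356). ABCB4, SLC51B and STX3 were each higher in HIF-1α knockdown than in wild type and lower in HIF-2α than in HIF-1α knockdown, as were GSTA1 and SULT2A1 below. Both comparisons use the same HIF-1α knockdown arrays, so these directions are not independent.

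Of 13 genes of glutathione and conjugation, which make the substrates of the ABCC exporters, GSTA1 rose by 1.09 and SULT2A1 by 0.57 in HIF-1α knockdown (limma adjusted p = 0.00263 and 0.0101), and none was called in HIF-2α knockdown against wild type. Both were lower in HIF-2α than in HIF-1α knockdown, with log2 differences of -0.65 and -0.44 (limma adjusted p = 0.0214 and 0.0172). Of 9 cobalamin genes, the receptor gene CUBN fell by 0.26 in HIF-1α knockdown and rose by 0.36 in HIF-2α knockdown (limma adjusted p = 0.0289 and 0.0049). None of 17 sterol and nuclear receptor regulators, 14 peroxisomal genes, 20 genes of iron-sulfur clusters and haem, 14 genes of ribosome recycling, 8 genes of peptide loading or 8 genes of ABCA lipid handling was called in any comparison. TAP1, TAP2 and CFTR, ABC proteins with other names, were not called either. Of 17 hypoxia-induced genes, 15 had a lower mean in HIF-1α knockdown than in wild type (median -0.17), and 1 was called lower. All 17 had a lower mean in HIF-2α knockdown than in wild type (median -0.26), and 6 were called lower. In HIF-2α against HIF-1α knockdown, 12 had a lower mean and 5 a higher one (median -0.09), and 4 were called lower. Over all genes, 52.0%, 44.6% and 44.7% had a higher mean in these comparisons. The partner lists were chosen with earlier results of these data known, so their counts are descriptions.

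Promoter windows from 250 bases before to 50 after a start were searched for the HIF core motif, ACGTG or GCGTG on either strand; ACGTG overlaps itself on the other strand within CACGTG. The RefSeq table matched 34 of 43 members with 51 windows, and 32 windows, or 62.7%, held a match, against 48.4% of all 35116 windows in the table. Windows can overlap, so the same match can be counted more than once, as in ABCG2 and in the stretch shared by ABCG5 and ABCG8. The member windows were also richer in G and C, with a median of 61.0% against 58.7%. A match is a description of the letters and does not show binding. The windows of ABCG2 and ABCA5, the called members with a window, are printed as the 250 bases before a start in GRCh38.p14, on the minus strand, with matches in capitals. That of ABCG2 is chr4:88158910-88159159, with 4 matches, 2 of which overlap. The 5 windows of this gene held 2, 4, 4, 0 and 0 matches, and the printed one is 1 of those with the most; that of ABCA5 is chr17:69327134-69327383, with 1 match.
ABCG2: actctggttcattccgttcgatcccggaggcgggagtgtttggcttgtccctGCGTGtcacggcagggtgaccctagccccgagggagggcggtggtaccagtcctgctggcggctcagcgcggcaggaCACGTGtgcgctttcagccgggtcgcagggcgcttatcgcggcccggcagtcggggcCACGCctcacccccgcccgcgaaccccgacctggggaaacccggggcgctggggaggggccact
ABCA5: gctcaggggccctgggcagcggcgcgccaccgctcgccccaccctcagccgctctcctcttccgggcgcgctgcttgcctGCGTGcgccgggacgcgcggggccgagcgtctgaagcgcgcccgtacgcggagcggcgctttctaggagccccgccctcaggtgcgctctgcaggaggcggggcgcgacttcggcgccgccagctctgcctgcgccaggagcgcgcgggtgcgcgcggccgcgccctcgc

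**Figure D4:**
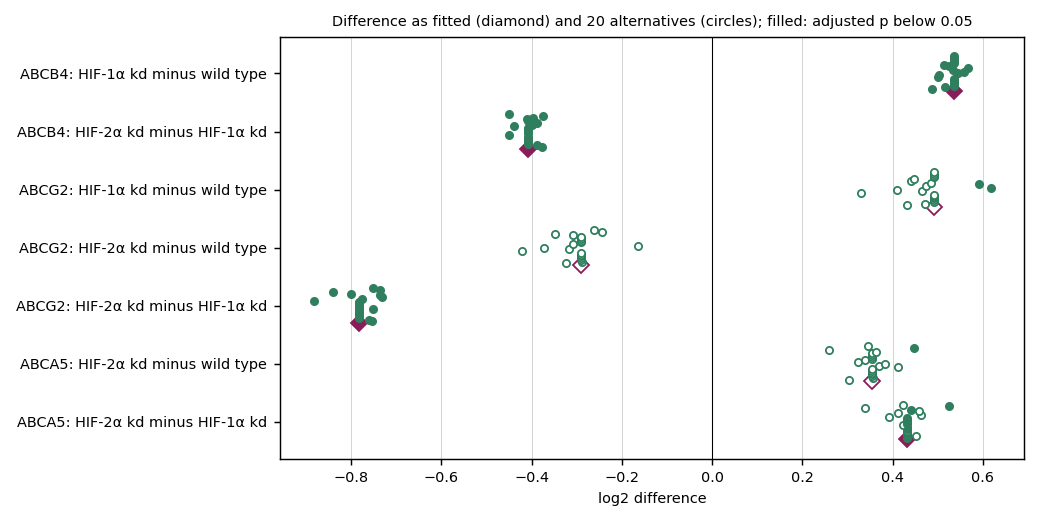
Log2 differences of ABCB4, ABCG2 and ABCA5 as fitted (diamonds) and under 20 other settings (circles); filled symbols were called, and kd stands for knockdown. ABCB4 is called in both its comparisons under all 20, ABCG2 between the knockdowns under all 20, and ABCA5 between the knockdowns under 11.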

How the data were processed

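The authors deposited log2 values for 32321 probe sets on 12 arrays, 4 per group, between 5.93 and 15.05. Base 2 was inferred from this range. How background was corrected and probes were summarized and normalized is not given in the sources used here, and the table holds no detection calls. The number of arrays limits the precision. Per the labels' protocols, RNA was amplified and labelled with biotin.

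Of the probe sets, 19158 had 1 symbol, 1388 several and 11775 none in the platform annotation; symbols were updated by Entrez identifier (19128 matched). All 12 arrays entered a limma 3.58.1 fit (R 4.3.3; lmFit with a mean for each group, then eBayes), which was first tested on simulated data. P-values were adjusted by Benjamini-Hochberg over 18404 genes. Replicate numbers were not used as pairs. The members and lists were chosen with earlier results of these data known. Members given by every array value are those called, the 5 with the smallest p in each comparison, and those best known in liver. As exceptions, the liver members ABCB11 and ABCG1 are given as ranges. ABCE1, outside this rule, is also given by every array value. Alternatives covered quantile normalization, median centring, probe set choice, a filter on low values, the fit, the replicate block and left-out arrays, 20 in all.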

Additional observations from a re-analysis of the deposited data

Results flagged for a closer look

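Dixon's test was applied at its 95% critical value to groups of 4 arrays. Chance gives about 1 in 20 for independent sets of values. The sets here share the same 12 arrays, so they are not independent, and the share over all genes is not given. Of 135 sets of values, 12 had 1 array far from the other 3. In HIF-2α knockdown these were ABCA1 in replicate 2 (10.33, others 9.98 to 10.02), ABCA6 in replicate 4 (6.69, others 6.51 to 6.53), ABCA12 in replicate 3 (6.60, others 6.66 to 6.67), ABCC3 in replicate 1 (8.72, others 8.90 to 8.93), ABCC4 in replicate 2 (8.87, others 8.58 to 8.62) and ABCC12 in replicate 4 (6.81, others 6.67 to 6.69). In HIF-1α knockdown they were ABCC12 in replicate 3 (6.57, others 6.65 to 6.67), ABCF1 in replicate 4 (9.78, others 9.91 to 9.92), ABCF3 in replicate 3 (8.65, others 8.53 to 8.54) and ABCG8 in replicate 1 (8.69, others 8.53 to 8.55). In wild type they were ABCA7 in replicate 4 (7.71, others 7.44 to 7.47) and ABCC1 in replicate 4 (9.81, others 9.37 to 9.40).

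The effects of the knockdowns differed by the limma test for 3 members. This is the comparison between the knockdowns given above and not a further result. The HIF-2α minus HIF-1α knockdown difference was 0.43 for ABCA5, -0.41 for ABCB4 and -0.78 for ABCG2. The ABCA5 call held under 11 of 20 other settings.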

How the results depend on the processing

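The calls of ABCB4 (HIF-1α knockdown against wild type, 0.49 to 0.57, and between the knockdowns, -0.45 to -0.37) and of ABCG2 between the knockdowns (-0.88 to -0.73) were made under all 20 alternatives. Some alternatives, such as leaving out an array of the group not compared, alter only the error or the adjustment and leave the difference as fitted. The number of members called in HIF-1α knockdown against wild type was 2 with a trend in the prior and 1 to 2 with an array left out, and in HIF-2α knockdown against wild type it was 1 under quantile normalization and 0 to 1 with an array left out. Over all genes, the HIF-1α knockdown count against wild type was 177 as fitted, 85 after median centring, 396 with only the 2 groups compared, 22 without the 3 raised-floor arrays and 50 to 483 with an array left out. The HIF-2α knockdown count against wild type was 145 as fitted, 404 under quantile normalization, 72 after centring, 64 with only the 2 groups, 286 with a trend, 37 without the raised-floor arrays and 61 to 219 with an array left out. Between the knockdowns it was 509 as fitted, 888 under quantile normalization, 337 after centring, 259 without the raised-floor arrays and 211 to 618 with an array left out. Quantile normalization moved the split of higher and lower calls from 150 and 27 to 140 and 114 in HIF-1α knockdown, and from 88 and 57 to 141 and 263 in HIF-2α knockdown, against wild type. With the replicate number as a block, the counts were 234, 202 and 562 genes and 1, 0 and 3 members. Samples that share a number deviated together with correlations from -0.17 to 0.64 (median 0.04), and samples with different numbers from -0.60 to 0.57 (median -0.08). Some pairs with the same number correlated above 0.1 and others did not, so the numbers were not taken to pair the samples. ABCA5 between the knockdowns was not called after centring (0.45, adjusted p = 0.0709), with only the 2 groups (0.43, adjusted p = 0.0715) or without the raised-floor arrays (0.42, adjusted p = 0.158), and gave 0.34 to 0.52 with an array left out. HIF1A itself was not called without the raised-floor arrays (-1.24, adjusted p = 0.103). The cause of these changes was not tested.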

Other observations

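The 3 neighbours on each side of the called members ABCB4, ABCG2 and ABCA5 were read by their order on the chromosome. Those of ABCB1, ABCG5 and ABCG8, which were not called as fitted, were read as well. CROT, which makes carnitine esters in peroxisomes and lies on the other side of ABCB4 from ABCB1, rose by 0.35 in HIF-2α knockdown against wild type (SE 0.07, limma adjusted p = 0.0320), where ABCB4 was not called. In HIF-1α knockdown, where ABCB4 rose, CROT differed by 0.02 (limma adjusted p = 0.945). Between the knockdowns, where ABCB4 was lower in HIF-2α knockdown (-0.41), CROT was higher (0.34, limma adjusted p = 0.02), and so was RUNDC3B, 2 places from ABCB4 (0.23, limma adjusted p = 0.0238). PLEKHH2, 3 places from ABCG5, fell by 0.43 in HIF-1α knockdown (limma adjusted p = 0.0108) and rose by 0.32 in HIF-2α knockdown (limma adjusted p = 0.0484). Near ABCB4, DMTF1, TMEM243 and SLC25A40 were not called in any comparison. Nor were C1GALT1C1L, DYNC2LI1, LRPPRC and PPM1B near ABCG5. None of SPP1, MEPE, PPM1K and HERC6 near ABCG2 was called in any comparison, and none of the ABCA5 neighbours ABCA10, ABCA6, ABCA9, MAP2K6, KCNJ16 and KCNJ2 was.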
